A study of Rattus norvegicus with 62 samples.

Results

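Kv3 and EAG-type potassium channels are voltage-gated channels that shape how sensory neurons fire. Of the 9 genes described here, 3 encode Kv3 subunits (Kcnc1, Kcnc2 and Kcnc4) and 6 encode members of the EAG superfamily (Kcnh1, Kcnh2, Kcnh5, Kcnh6, Kcnh7 and Kcnh8). They were taken by symbol from the 40982 genes counted in the series, and all 9 passed the filter on low counts in every comparison. The tissue was the L4 dorsal root ganglion of the rat, which holds the cell bodies of sensory neurons of the sciatic nerve, collected after chronic constriction injury (CCI), a nerve injury widely used to study neuropathic pain. The comparison was between the side of the injured nerve (ipsilateral) and the opposite side (contralateral) of each cohort, so both groups come from operated rats and no ganglia of unoperated rats were analysed here. Males were sampled at 24 h (6 ipsilateral and 6 contralateral libraries), 1 week (7 and 7) and 5 weeks (5 and 5), and females at 1 week (7 and 7) and 5 weeks (6 and 6). Strain and age are not given in the sources used here.

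Kv3 channels open at strongly depolarised potentials and close fast, which lets neurons repolarise quickly and fire at high rates. The EAG superfamily holds 3 branches: EAG (Kcnh1, Kcnh5), ERG (Kcnh2, Kcnh6, Kcnh7) and ELK (Kcnh8 and its relatives). ERG channels inactivate quickly, recover quickly and close slowly, and carry a current that helps to return the membrane to rest and to limit repeated firing. The human counterpart of Kcnh2 encodes the cardiac channel hERG, whose loss lengthens the action potential of the heart.

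The 62 libraries held 16.9 to 33.5 M counts. Values per library are CPM, read counts scaled to library size by a trimmed mean of ratios. Atf3, a transcription factor of injured neurons, was higher on the ipsilateral side in all 5 groups of rats, by log2 fold changes of 4.46 to 5.27. All 10 neuron markers had a median of at least 10 counts over the libraries. The male 1 and 5 week libraries were counted in one table and the female and male 24 h libraries in another, so sex and table cannot be told apart at 1 and 5 weeks. Poly-A RNA of whole ganglia was counted: fewer cells of a type and less RNA per cell cannot be told apart. The labels tie both sides to one animal for females and for males at 24 h, but name no animal for males at 1 and 5 weeks. There p-values measure the spread between these samples, and pairs, counted or fitted, are libraries with the same replicate number and not labelled animals. The main tests did not pair the sides in any group of rats, and the fit that pairs them is named where it changed a call.

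On the contralateral side, with counts divided by exon length, Kcnh2 was the member with the highest level at 40.2 CPM per kb (31.3 to 50.6), given as the median and the full range over 31 libraries. Kcnh7 followed at 10.6 CPM per kb (6.80 to 13.3), Kcnc4 at 9.60 CPM per kb (5.81 to 11.6) and Kcnc1 at 9.10 CPM per kb (5.99 to 11.8). These last 3 overlapped in range and are not ordered by these data. Kcnh1 stood at 5.41 CPM per kb (4.30 to 6.63), Kcnh6 at 4.66 CPM per kb (3.69 to 5.81) and Kcnc2 at 4.37 CPM per kb (3.80 to 5.12), again with overlapping ranges. Kcnh5 had 1.64 CPM per kb (1.28 to 1.90) and Kcnh8 1.23 CPM per kb (0.784 to 1.45), also overlapping. The range of Kcnh2 lay above that of every other member, and the ranges of Kcnh5 and Kcnh8 lay below those of the other 7. Counts of Kcnh8 were 59 to 162.5 per contralateral library, the fewest of the 9 genes.

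**Figure D1:**
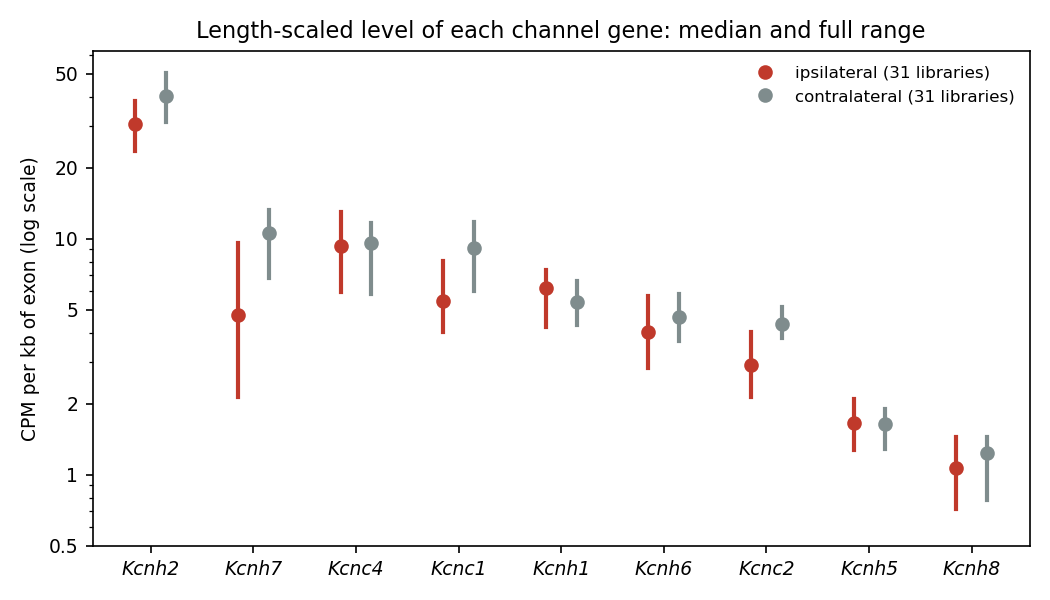
CPM per kb of exon (log scale) of each of the 9 genes, with the median (point) and the full range (line) over 31 ipsilateral and 31 contralateral libraries. Kcnh2 has the highest level on both sides. Medians are lower on the ipsilateral side for Kcnh7, Kcnc1, Kcnc2, Kcnh2, Kcnh6, Kcnh8 and, slightly, Kcnc4. They are higher there for Kcnh1 and, slightly, Kcnh5.

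On the ipsilateral side the Kcnh7 median was 4.76 CPM per kb (2.14 to 9.55), below Kcnc4 at 9.27 CPM per kb (5.96 to 13.0), Kcnh1 at 6.17 CPM per kb (4.23 to 7.34) and Kcnc1 at 5.45 CPM per kb (4.03 to 8.03). The ranges of these 4 genes overlapped. Kcnh4, an ELK gene, had only 6 to 41 counts per ipsilateral and 3 to 19 per contralateral library, and Kcnh3, the other ELK gene, had at most 6.

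The bases upstream of the start sites are shown for Kcnh7, Kcnh1 and Kcnc2. Kcnh7 had the largest side difference of the 9 genes at 1 week in both sexes. In females at 5 weeks it did not, with a log2 fold change of -0.30 against -0.53 for Kcnc1. Kcnh1 was the one that rose, and Kcnc2 fell beside Kcnh7 but differs from it in base composition. Sequences are from RefSeq (build GRCr8), 250 bases ending just before the annotated start, 5′ to 3′ on the gene's strand. Capitals mark the GC box (GGGCGG on either strand), the binding motif of Sp1-type factors.
Kcnh7: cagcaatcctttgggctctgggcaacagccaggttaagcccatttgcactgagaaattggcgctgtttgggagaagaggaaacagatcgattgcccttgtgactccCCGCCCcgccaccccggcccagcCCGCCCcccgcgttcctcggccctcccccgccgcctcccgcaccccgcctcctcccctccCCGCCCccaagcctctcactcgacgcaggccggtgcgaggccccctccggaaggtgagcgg
Kcnh1: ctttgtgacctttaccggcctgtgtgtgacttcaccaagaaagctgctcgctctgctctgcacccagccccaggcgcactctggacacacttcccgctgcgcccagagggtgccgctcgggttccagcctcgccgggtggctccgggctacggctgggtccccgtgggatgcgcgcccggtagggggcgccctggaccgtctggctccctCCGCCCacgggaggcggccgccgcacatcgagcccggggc
Kcnc2: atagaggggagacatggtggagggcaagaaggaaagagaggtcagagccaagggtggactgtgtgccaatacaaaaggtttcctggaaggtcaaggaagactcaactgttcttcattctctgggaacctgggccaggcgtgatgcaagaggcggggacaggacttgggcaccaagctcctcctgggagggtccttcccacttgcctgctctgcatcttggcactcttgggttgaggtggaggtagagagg
They lie at chr3:68230672-68230921 (minus strand), chr13:106252966-106253215 (plus) and chr7:49587364-49587613 (plus), the last being 1 of 2 listed starts of Kcnc2. An upstream sequence was listed for 8 of the 9 members, all but Kcnh2. GC content was 69.2% for Kcnh7, 71.6% for Kcnh1 and 56.0% for Kcnc2, against a median of 51.2% over 33469 such windows. Kcnh7 held 3 GC boxes, Kcnh1 held 1 and both Kcnc2 windows held 0, while 30.5% of all windows held at least 1. The other windows held 3 (Kcnc1), 2 (Kcnh6) and 1 each (Kcnc4, Kcnh5 and Kcnh8). The AP-1 motif TGANTCA, which Atf3-type factors bind, and the CRE motif TGACGTCA, searched on both strands, were in none of the members' windows and in 6.34% and 1.59% of all windows. The motifs are matches of letters only.

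Kcnh7 encodes ERG3 and is annotated at chr3:47329338-47822122 on the minus strand (mRatBN7.2, as are all gene positions below, which span exons and introns). In males at 1 week Kcnh7 had 39.7 to 68.6 CPM (median 55.1) in ipsilateral ganglia, against 124 to 151 CPM (median 144) in contralateral ganglia. In females at 1 week it had 27.8 to 48.3 CPM (median 37.2) in ipsilateral ganglia, against 147 to 172 CPM (median 161) in contralateral ganglia. Every ipsilateral library lay below every contralateral library in both sexes, and the female sides were further apart. By edgeR's quasi-likelihood test with Benjamini-Hochberg adjustment over all genes, the basis of every adjusted p below unless another tool is named, the log2 fold change of ipsilateral over contralateral ganglia was -1.32 (SE 0.10, adjusted p = 5.74e-10) in males and -2.0 (SE 0.10, adjusted p = 5.99e-18) in females. Ipsilateral levels were thus 0.401 of the contralateral ones in males and 0.250 in females.

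At 5 weeks the ipsilateral ganglia of males had 61.8, 49.8, 66.3, 48.2 and 42.5 CPM, against 114, 114, 136, 143 and 132 CPM in contralateral ganglia. Again no values overlapped between the sides. The log2 fold change was -1.28 (SE 0.12, adjusted p = 4.21e-08). In females at 5 weeks the ipsilateral ganglia had 62.2 to 107 CPM (median 74.4), against 88.4 to 104 CPM (median 102) in contralateral ganglia. Here the sides overlapped: 5 of 6 pairs were lower on the ipsilateral side, and ipsilateral library 2 lay above all contralateral ones. The log2 fold change was -0.30 (SE 0.10, adjusted p = 0.0153), and without ipsilateral library 6 it was -0.24, adjusted p = 0.0566. At 24 h, in males, ipsilateral ganglia had 105 to 124 CPM (median 113), against 128 to 158 CPM (median 139) in contralateral ganglia, with no overlap and all 6 pairs lower. The log2 fold change was -0.32 (SE 0.10, adjusted p = 0.0279). This call was lost, with adjusted p of 0.0553 to 0.0734, when ipsilateral library 2, 4 or 6 or contralateral library 3 or 4 was left out, and with no filter on low counts (-0.32, adjusted p = 0.0555).

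**Figure D2:**
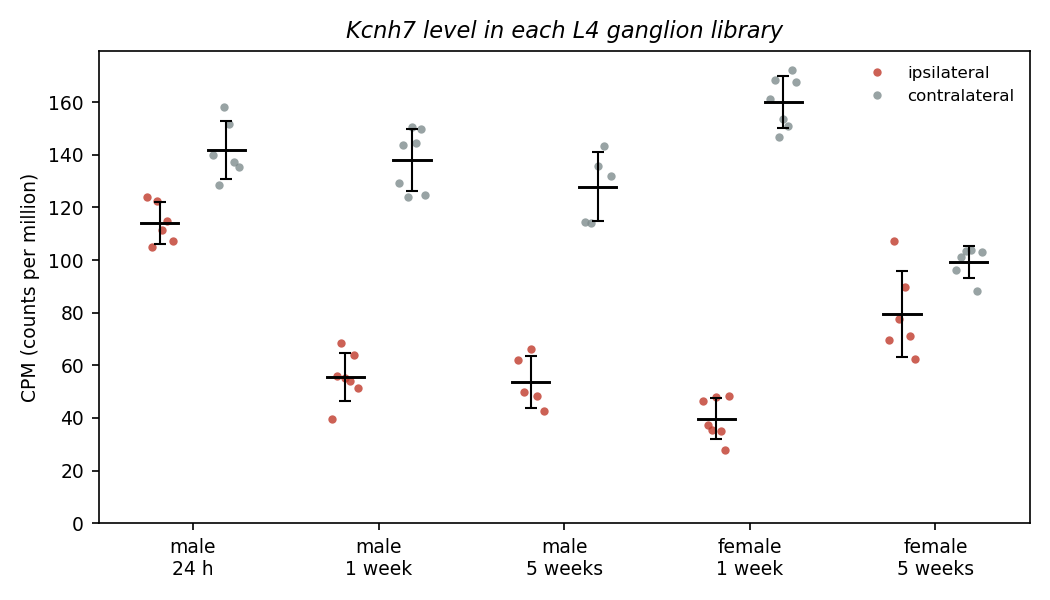
Kcnh7 CPM in each library, ipsilateral left of contralateral in each group of rats, with the mean and SD. The sides are apart at 24 h, 1 week and 5 weeks in males and at 1 week in females, and overlap at 5 weeks in females.

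Kcnh2 encodes ERG1 and is annotated at chr4:10826834-10859009 (plus strand). At 1 week it had 129 to 188 CPM (median 141) in ipsilateral ganglia of males, against 202 to 248 CPM (median 215) in contralateral ganglia. In females it had 115 to 149 CPM (median 127) in ipsilateral ganglia, against 169 to 197 CPM (median 188) in contralateral ganglia. The sides did not overlap in either sex, nor at 5 weeks, when ipsilateral ganglia of males had 156, 167, 179, 155 and 170.4 CPM, against 186, 203, 231, 209.7 and 232 CPM in contralateral ganglia. In females at 5 weeks the values were 141 to 179 CPM (median 153) in ipsilateral ganglia, against 191 to 219 CPM (median 207) in contralateral ganglia. Kcnh2 fell in all 4 of these comparisons, by log2 fold changes of -0.56 (SE 0.070, adjusted p = 4.41e-07) in males and -0.52 (SE 0.058, adjusted p = 1.39e-09) in females at 1 week, and -0.38 (SE 0.083, adjusted p = 7.50e-04) in males and -0.38 (SE 0.063, adjusted p = 6.99e-06) in females at 5 weeks. At 24 h it had 119 to 155 CPM (median 151) in ipsilateral ganglia, against 154 to 181 CPM (median 162) in contralateral ganglia. All 6 pairs were lower on the ipsilateral side, but the log2 fold change of -0.17 (SE 0.063, adjusted p = 0.0604) was not called.

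Kcnh6 encodes ERG2 and is annotated at chr10:90949240-90970746 (plus strand). In males it had 17.8 to 24.9 CPM (median 21.1) in ipsilateral and 24.6 to 28.1 CPM (median 26.6) in contralateral ganglia at 1 week. At 5 weeks ipsilateral ganglia of males had 23.9, 26.6, 23.5, 17.1 and 21.3 CPM, against 27.1, 31.2, 32.1, 25.7 and 27.1 CPM in contralateral ganglia. The sides overlapped at both times, although every pair was lower on the ipsilateral side. In females Kcnh6 had 16.5 to 30.6 CPM (median 21.3) in ipsilateral and 24.1 to 33.8 CPM (median 27.2) in contralateral ganglia at 1 week. At 5 weeks females had 20.03 to 29.7 CPM (median 23.9) in ipsilateral and 30.3 to 33.3 CPM (median 31.7) in contralateral ganglia. Only this last pair of groups did not overlap. Kcnh6 fell in males, with log2 fold changes of -0.29 (SE 0.079, adjusted p = 0.00331) at 1 week and -0.37 (SE 0.094, adjusted p = 0.00301) at 5 weeks. In females the log2 fold change was -0.29 (SE 0.11, adjusted p = 0.0237) at 1 week and -0.38 (SE 0.11, adjusted p = 0.00677) at 5 weeks. With the 1 week contralateral libraries in their place, the female 5 week value was -0.20, adjusted p = 0.153. The female 1 week call was lost without contralateral library 3 or ipsilateral library 2, 5 or 6, with adjusted p of 0.0652 to 0.0746, and the ipsilateral libraries there had the widest range. It was also lost in a fit of only these 2 groups (-0.30, adjusted p = 0.0774) and with the share of ribosomal RNA as a covariate (-0.33, adjusted p = 0.244). That share did not overlap between the sides in females at 1 week, so the covariate and side cannot be told apart there. At 24 h Kcnh6 had 22.1 to 33.4 CPM (median 27.6) in ipsilateral and 21.5 to 28.2 CPM (median 23.9) in contralateral ganglia, with overlap. It was the ERG gene with a positive estimate there, 0.21 (SE 0.11, adjusted p = 0.231), which was not called.

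Kcnc1 encodes Kv3.1 and is annotated at chr1:96902953-96944744 (plus strand). At 1 week ipsilateral ganglia of males had 17.8 to 31.9 CPM (median 18.8), against 31.4 to 40.9 CPM (median 36.2) in contralateral ganglia. The one overlapping ipsilateral library, replicate 3, was the highest of its group in Kcnc1, Kcnc2, Kcnc4, Kcnh2, Kcnh7 and Kcnh8. In females ipsilateral ganglia had 16.0 to 29.5 CPM (median 20.9), against 33.1 to 46.9 CPM (median 35.6) in contralateral ganglia, with no overlap. Kcnc1 fell, with log2 fold changes of -0.79 (SE 0.12, adjusted p = 1.23e-05) in males and -0.71 (SE 0.10, adjusted p = 6.45e-07) in females. At 5 weeks ipsilateral ganglia of males had 19.0, 22.9, 27.9, 23.4 and 21.4 CPM, against 24.4, 33.5, 39.0, 36.2 and 38.7 CPM in contralateral ganglia, where 1 low contralateral library made the sides overlap. In females at 5 weeks ipsilateral ganglia had 21.7 to 31.7 CPM (median 26.1), against 36.7 to 43.6 CPM (median 38.8) in contralateral ganglia, with no overlap. The log2 fold change at 5 weeks was -0.61 (SE 0.15, adjusted p = 0.00220) in males and -0.53 (SE 0.11, adjusted p = 2.54e-04) in females. At 24 h it was -0.28 (SE 0.11, adjusted p = 0.0969), with ipsilateral levels of 19.3 to 26.6 CPM (median 24.0) and contralateral levels of 23.8 to 32.8 CPM (median 28.5), and 5 of 6 pairs lower. In the fit that pairs both sides of an animal this 24 h difference was called (-0.28, adjusted p = 0.0136). With group means removed, same-numbered libraries of both sides correlated above 0.1 over all genes in only 4 of 6 pairs at 24 h.

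Kcnc2 encodes Kv3.2 and is annotated at chr7:47700035-47883979 (plus strand). It had 15.8 to 22.6 CPM (median 17.7) in ipsilateral and 28.7 to 34.5 CPM (median 30.9) in contralateral ganglia of males at 1 week. In females at 1 week it had 14.9 to 22.0 CPM (median 19.2) in ipsilateral and 27.4 to 34.7 CPM (median 32.2) in contralateral ganglia. The sides were apart in both sexes, and Kcnc2 fell, with log2 fold changes of -0.77 (SE 0.072, adjusted p = 3.77e-09) in males and -0.76 (SE 0.074, adjusted p = 5.17e-11) in females. At 5 weeks ipsilateral ganglia of males had 15.8, 18.3, 19.8, 14.4 and 19.2 CPM, against 26.2, 28.9, 30.1, 26.4 and 29.2 CPM in contralateral ganglia. Females at 5 weeks had 16.7 to 24.4 CPM (median 21.2) in ipsilateral and 26.2 to 30.8 CPM (median 28.5) in contralateral ganglia. The sides did not overlap at 5 weeks either. The log2 fold change was -0.71 (SE 0.087, adjusted p = 6.87e-07) in males and -0.43 (SE 0.080, adjusted p = 3.76e-05) in females. At 24 h Kcnc2 had 23.3 to 27.2 CPM (median 25.9) in ipsilateral and 25.7 to 30.5 CPM (median 27.7) in contralateral ganglia. The sides overlapped and all 6 pairs were lower on the ipsilateral side, but the log2 fold change of -0.14 (SE 0.079, adjusted p = 0.247) was not called.

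**Figure D3:**
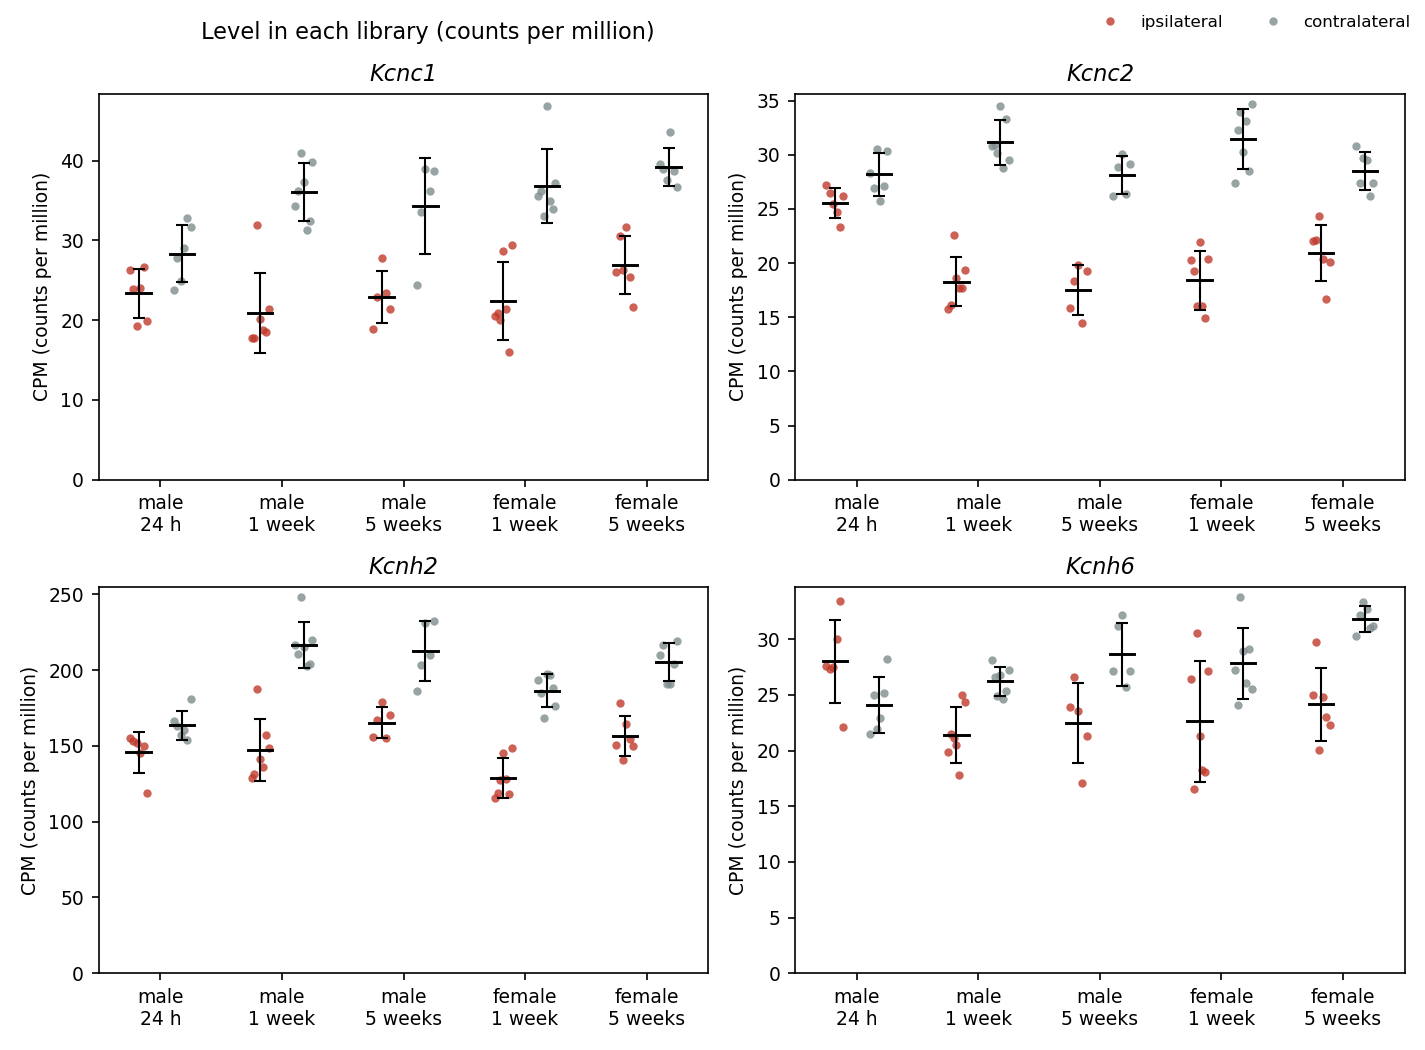
CPM of Kcnc1, Kcnc2, Kcnh2 and Kcnh6 in each library, ipsilateral left of contralateral, with the mean and SD. Kcnc2 and Kcnh2 do not overlap between the sides at 1 or 5 weeks in either sex, while all 4 genes overlap between the sides at 24 h.

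Kcnc4 encodes Kv3.4, a fast-inactivating Kv3 subunit of nociceptors, and is annotated at chr2:195063967-195099233 (minus strand). It was not called in any of the 5 comparisons of sides, but the male 1 week value with the 5 week contralateral libraries was (-0.24, adjusted p = 0.0127). Mean levels at 1 week were 133 ± 14.8 CPM in ipsilateral and 137 ± 14.1 CPM in contralateral ganglia of males (SD, n = 7 each). In females at 1 week they were 143 ± 15.0 CPM in ipsilateral and 153 ± 16.7 CPM in contralateral ganglia (SD, n = 7 each). The 95% intervals of the log2 fold change were -0.25 to 0.18 in males at 24 h, -0.18 to 0.10 in males at 1 week, -0.19 to 0.15 in males at 5 weeks, -0.29 to 0.10 in females at 1 week and -0.13 to 0.30 in females at 5 weeks. At 1 and 5 weeks these intervals lie above those of Kcnc1 and Kcnc2 in the same rats, although a test between genes was not made.

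Kcnh1 encodes EAG1 and is annotated at chr13:103722140-104024762 (plus strand). It was the member that rose. Ipsilateral ganglia of males had 40.7 to 49.6 CPM (median 43.4), against 36.7 to 44.4 CPM (median 38.8) in contralateral ganglia at 1 week. At 5 weeks ipsilateral ganglia of males had 53.2, 52.2, 55.5, 51.1 and 46.7 CPM, against 44.5, 42.9, 43.7, 43.0 and 47.1 CPM in contralateral ganglia. Females had 49.5 to 54.7 CPM (median 53.0) in ipsilateral and 42.8 to 54.0 CPM (median 45.2) in contralateral ganglia at 1 week. The sides overlapped each time, with 1 pair going the other way in each of these groups of rats. Females at 5 weeks had 50.8 to 59.8 CPM (median 57.6) in ipsilateral and 45.5 to 53.8 CPM (median 49.6) in contralateral ganglia, again with overlap. The log2 fold change was 0.16 (SE 0.047, adjusted p = 0.00658) in males and 0.19 (SE 0.052, adjusted p = 0.00316) in females at 1 week. At 5 weeks it was 0.20 (SE 0.056, adjusted p = 0.00588) in males and 0.19 (SE 0.056, adjusted p = 0.00610) in females, so the size was at most 1.15-fold. At 24 h it was 0.042 (adjusted p = 0.701). With the 5 week contralateral libraries in their place, the male 1 week value was -0.021, adjusted p = 0.764, and the female one was 0.10, adjusted p = 0.129. The female 1 week call was also lost with the share of ribosomal RNA as a covariate (0.12, adjusted p = 0.405). That share did not overlap between these sides, so this fit cannot separate it from side.

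Kcnh5 encodes EAG2 and is annotated at chr6:93615174-93908107 (minus strand). In the 5 comparisons of sides as planned it was not called, but other settings called it in 3 of them. Its mean was 26.9 ± 1.44 CPM in ipsilateral and 24.6 ± 1.34 CPM in contralateral ganglia of males at 1 week (SD, n = 7 each), a log2 fold change of 0.12 (SE 0.052, adjusted p = 0.0523). That estimate was near the threshold and was called by DESeq2 (0.12, adjusted p = 0.0435) and limma-voom (0.12, adjusted p = 0.0399), and by edgeR with a stricter filter (0.14, adjusted p = 0.0210) or a fit of only the 2 groups (0.13, adjusted p = 0.0253). Unrounded counts (0.13, adjusted p = 0.0394), ribosomal RNA genes left out (0.12, adjusted p = 0.0482) and the 5 week contralateral libraries (0.20, adjusted p = 0.00623) gave a call as well. It was also called with edgeR when contralateral library 3, 4 or 6 or ipsilateral library 5, 6 or 7 was left out, with adjusted p of 0.0234 to 0.0485. At 5 weeks in males its mean was 21.8 ± 1.56 CPM in ipsilateral and 23.1 ± 2.10 CPM in contralateral ganglia (SD, n = 5 each), a log2 fold change of -0.11 (SE 0.063, adjusted p = 0.194), or -0.16, adjusted p = 0.0443 without contralateral library 2. With the 1 week contralateral libraries in their place it was -0.18, adjusted p = 0.0115. In females the 95% intervals were -0.10 to 0.13 at 1 week and -0.028 to 0.23 at 5 weeks. The female 1 week value was called with the 5 week contralateral libraries (0.21, adjusted p = 0.00530).

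Kcnh8 encodes ELK1 and is annotated at chr9:5506044-5945828 (plus strand). In males at 1 week it had 3.42 to 4.40 CPM (median 3.82) in ipsilateral and 3.70 to 5.42 CPM (median 4.84) in contralateral ganglia, with all 7 pairs lower and overlapping sides. Its log2 fold change there was -0.27 (SE 0.10, adjusted p = 0.0274). This call was lost when ipsilateral library 1, 2 or 7 or contralateral library 4, 5 or 6 was left out, with adjusted p of 0.0501 to 0.0721, and with the 5 week contralateral libraries in their place (-0.22, adjusted p = 0.106). In the other 4 comparisons of sides Kcnh8 was not called, with 95% intervals of -0.49 to 0.019 (males, 24 h), -0.37 to 0.10 (males, 5 weeks), -0.36 to 0.11 (females, 1 week) and -0.22 to 0.31 (females, 5 weeks). Its ELK relative Kcnh4, at much lower levels, rose at both weeks in both sexes. In females at 1 week Kcnh4 averaged 1.25 ± 0.291 CPM in ipsilateral and 0.345 ± 0.205 CPM in contralateral ganglia (SD, n = 7 each). The log2 fold changes of Kcnh4 were 1.73 (SE 0.18, adjusted p = 1.94e-08) in males and 1.85 (SE 0.25, adjusted p = 9.67e-08) in females at 1 week, and 1.70 (SE 0.22, adjusted p = 1.30e-06) in males and 0.96 (SE 0.26, adjusted p = 0.00326) in females at 5 weeks.

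**Figure D4:**
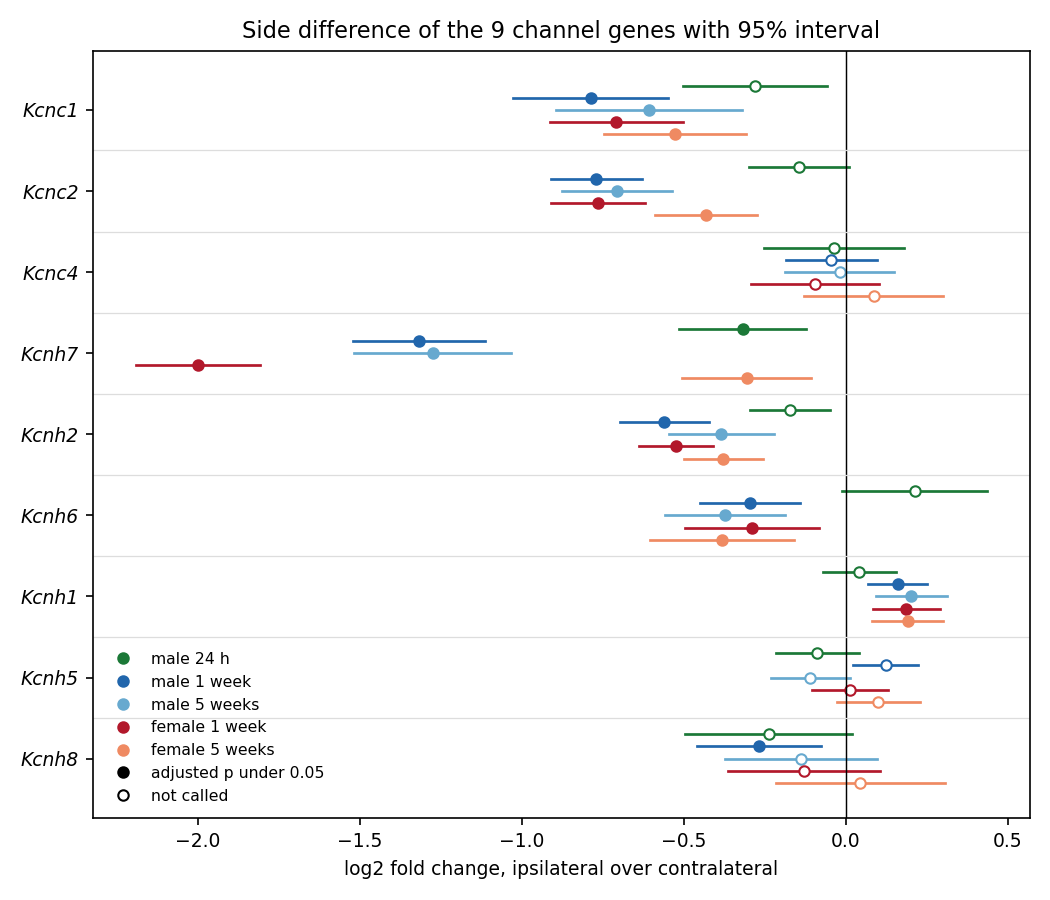
Log2 fold change of ipsilateral over contralateral ganglia with its 95% interval for each of the 9 genes in the 5 groups of rats. Filled points passed an adjusted p of 0.05. Kcnc1, Kcnc2, Kcnh2 and Kcnh6 are lower at 1 and 5 weeks in both sexes, Kcnh7 is lower in all 5 groups with sizes that differ, and Kcnh1 is higher at 1 and 5 weeks.

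Counted over the 9 genes, 1 was lower and 0 were higher in males at 24 h, where 14.1% of all 18125 genes tested were called (5.90% lower and 8.23% higher). In males at 1 week 6 were lower and 1 was higher, against 47.0% of 18980 genes called (23.4% lower and 23.6% higher). In males at 5 weeks 5 were lower and 1 was higher, against 34.7% called (18.7% lower and 16.0% higher). Females had 5 lower and 1 higher both at 1 week, against 45.7% called (21.8% lower and 23.9% higher), and at 5 weeks, against 42.0% called (19.1% lower and 22.9% higher). The median log2 fold change of the 9 genes was -0.29 at 1 week in both sexes, -0.37 in males and -0.30 in females at 5 weeks and -0.14 at 24 h, while that of all genes tested lay between -0.0090 and 0.015. Sides did not overlap for 1 of 9 members in males at 24 h (5.50% of all genes, 1.70% with the ipsilateral side lower), 3 at 1 week (22.0%, 10.8% lower) and 3 at 5 weeks (20.6%, 9.52% lower). In females they did not overlap for 4 members at 1 week (20.9%, 10% lower) and 4 at 5 weeks (21.7%, 10.5% lower). All of these non-overlapping members were lower on the ipsilateral side.

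The change from 24 h to 1 week in males was tested as the difference between the side differences, in a joint fit of both tables. It was called for 5 of 9 members, all more negative at 1 week, against 23.0% of 19209 genes (12.0% more negative). The estimates were -1.0 (SE 0.15, adjusted p = 8.01e-07) for Kcnh7, -0.63 (SE 0.11, adjusted p = 1.76e-05) for Kcnc2 and -0.39 (SE 0.095, adjusted p = 0.00162) for Kcnh2. For Kcnh6 it was -0.51 (SE 0.14, adjusted p = 0.00677) and for Kcnc1 -0.51 (SE 0.17, adjusted p = 0.0222). Kcnh6 thus had a positive estimate at 24 h and fell at 1 week. The Kcnc1 call was lost without the libraries numbered 1, 2, 4 or 5 (adjusted p of 0.0534 to 0.113), and the Kcnh6 call without those numbered 1 or 5 (0.0528 and 0.0534). The 24 h and 1 week libraries are in different tables, so time and table cannot be told apart here. Contralateral Kcnh2, for example, averaged 217 ± 15.3 CPM in males at 1 week (SD, n = 7) and 164 ± 9.67 CPM at 24 h (SD, n = 6).

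Between 1 and 5 weeks in males the side difference was called for 0 of 9 members by edgeR, by DESeq2 and by limma-voom, with 1 member at an unadjusted p under 0.05. Only 40 of 18980 genes (0.211%) were called in that test, and 497 with the pairing of sides, none of them a member. The Kcnh7 estimate was 0.042 (SE 0.16, adjusted p = 0.975) and that of Kcnc1 was 0.18 (SE 0.19, adjusted p = 0.831). In females 2 of 9 members were called, against 13.5% of 18125 genes (7.66% more positive). The Kcnh7 side difference was less negative at 5 weeks than at 1 week by 1.70 (SE 0.14, adjusted p = 2.18e-11) on the log2 scale, and it remained called without each of the 26 libraries in turn, with estimates of 1.59 to 1.76. That of Kcnc2 was less negative by 0.33 (SE 0.11, adjusted p = 0.0342), a call lost in 12 of the 26 leave-one-out fits (3 ipsilateral and 3 contralateral libraries of each week: ipsilateral 3, 5 and 6 and contralateral 3, 5 and 7 of 1 week, ipsilateral 1, 2 and 3 and contralateral 2, 5 and 6 of 5 weeks), where adjusted p was 0.0524 to 0.0776. It was also lost with the share of ribosomal RNA as a covariate (0.35, adjusted p = 0.251). In these females that share did not overlap between the sides at 1 week, nor between the weeks on the ipsilateral side. This fit therefore cannot separate the share from side and week. The other 7 members had adjusted p of at least 0.292.

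In females Kcnh7 differed between the weeks on both sides. Kcnh7 averaged 79.6 ± 16.4 CPM in ipsilateral ganglia at 5 weeks (SD, n = 6) and 39.7 ± 7.83 CPM at 1 week (SD, n = 7), a log2 fold change of 1.0 (SE 0.10, adjusted p = 4.55e-09). It averaged 99.4 ± 6.10 CPM in contralateral ganglia at 5 weeks (SD, n = 6) and 160.1 ± 9.81 CPM at 1 week (SD, n = 7), a log2 fold change of -0.70 (SE 0.10, adjusted p = 5.56e-06). The week groups did not overlap on either side. In males neither side was called between the weeks: the log2 fold change was -0.050 (SE 0.11, adjusted p = 0.817) on the ipsilateral and -0.092 (SE 0.11, adjusted p = 0.640) on the contralateral side. With contralateral libraries exchanged between the weeks, the female log2 fold change of sides was -1.30, adjusted p = 5.35e-13 at 1 week and -1.0, adjusted p = 4.04e-10 at 5 weeks. The same exchange in males gave -1.23 at 1 week and -1.37 at 5 weeks.

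**Figure D5:**
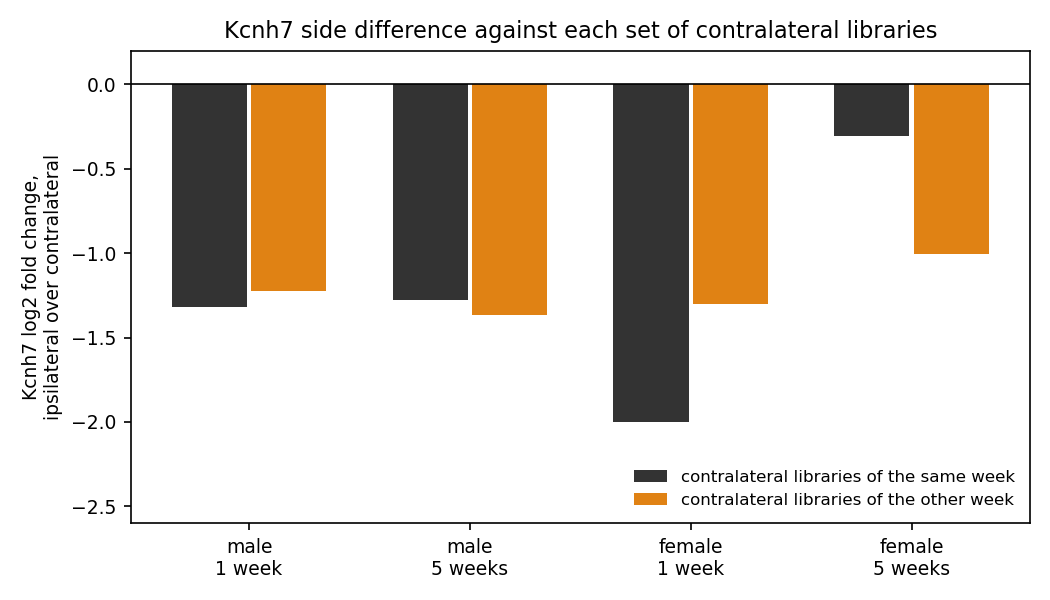
Kcnh7 log2 fold change of ipsilateral ganglia over the contralateral ganglia of the same week (dark) and of the other week of the same sex (orange). The male bars lie between -1.37 and -1.23, and the female bars are at -2.0 (same week) and -1.30 (other week) at 1 week, and at -0.30 (same week) and -1.0 (other week) at 5 weeks.

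Other measures also differed between sides or weeks in the female ganglia, though not all in the way Kcnh7 did. The share of counts in ribosomal RNA genes was 0.970% ± 0.236 in ipsilateral and 2.25% ± 0.359 in contralateral libraries of females at 1 week (SD, n = 7 each), and 2.05% ± 0.350 and 2.11% ± 0.314 in ipsilateral and contralateral libraries at 5 weeks (SD, n = 6 each). With that share as a covariate the Kcnh7 fold change of sides was -1.97, adjusted p = 4.24e-10 in females at 1 week, and the Kcnh7 difference between weeks was 1.67, adjusted p = 2.80e-07. At 1 week the share was 0.692% to 1.42% in ipsilateral and 1.69% to 2.76% in contralateral libraries of females. The sides did not overlap, so the covariate and side cannot be told apart there. Ro60, an RNA-binding protein gene chosen after its values were seen, averaged 6.39 ± 1.67 CPM in ipsilateral and 19.3 ± 2.41 CPM in contralateral libraries of females at 1 week (SD, n = 7 each). At 5 weeks it averaged 24.5 ± 1.78 CPM in ipsilateral and 5.87 ± 1.25 CPM in contralateral libraries (SD, n = 6 each). Its levels therefore crossed between sides and weeks in females, while in males its log2 fold change of sides was 0.25 at 1 week and 0.15 at 5 weeks. Among other potassium channel genes, Kcnb2, a Kv2 subunit, had a log2 fold change of sides of -1.86 at 1 week and 0.77 at 5 weeks in females, and Kcnq3, an M-current subunit, one of -0.61 and 0.71. Atf3 was higher on the labelled ipsilateral side at both weeks in these females, with 5.27 at 1 week and 4.58 at 5 weeks. The labels do not say whether the females of the 2 weeks differed in strain or source, or which ganglia were handled together. Time after injury and any such difference, or a mix of labels within the cohorts, cannot be told apart in the Kcnh7 differences between weeks and between sexes, and the part of a factor common to these libraries was not tested.

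Female over male comparisons of the side difference were called for 1 of 9 members at each week, Kcnh7 both times. At 1 week, where 1.11% of 19209 genes were called (0.698% more negative in females), the Kcnh7 side difference was more negative in females with a log2 difference of -0.69 (SE 0.14, adjusted p = 0.00244). At 5 weeks, where 2.11% were called (1.55% more positive in females), it was less negative in females, with a difference of 0.93 (SE 0.16, adjusted p = 1.19e-04). These differences had opposite signs. Without each replicate number in turn they ranged from -0.78 to -0.58 and from 0.83 to 1.05 and stayed called. For the other 8 members the estimates lay between -0.12 (Kcnh5) and 0.13 (Kcnh8) at 1 week and between -0.048 (Kcnh1) and 0.24 (Kcnc2) at 5 weeks, and their adjusted p was at least 0.412. These comparisons cross the 2 tables, and the female side differences use the contralateral libraries that differed between the weeks.

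Of the other members, few differed between the weeks within a side. In females Kcnh2 was higher in ipsilateral ganglia at 5 weeks than at 1 week by 0.27 (SE 0.060, adjusted p = 0.00129) on the log2 scale, and 17.3% of genes were called there. With the share of ribosomal RNA as a covariate this Kcnh2 call was lost (0.27, adjusted p = 0.114), as was that of Kcnh1 in ipsilateral males described last (0.17, adjusted p = 0.175). That share did not overlap between the weeks in ipsilateral females, so the fit cannot separate it from week there. On the contralateral side Kcnh5 was lower at 5 weeks, with a log2 fold change of -0.20 (SE 0.063, adjusted p = 0.0351), where 10.7% were called, a call lost without contralateral library 3 or 7 of 1 week or 2, 3 or 6 of 5 weeks (adjusted p of 0.0651 to 0.120). In males Kcnh5 was lower in ipsilateral ganglia at 5 weeks, with -0.31 (SE 0.058, adjusted p = 9.07e-04), where 14.4% were called. Kcnh1 was higher in males at 5 weeks on both sides, by 0.22 (SE 0.051, adjusted p = 0.00440) in ipsilateral and 0.18 (SE 0.052, adjusted p = 0.0200) in contralateral ganglia, where 13.5% of genes were called. The contralateral call was lost without contralateral library 1 or 3 of 1 week or 5 of 5 weeks (adjusted p of 0.0505 to 0.0989), with no filter on low counts (0.17, adjusted p = 0.0501) and with the share of ribosomal RNA as a covariate (0.11, adjusted p = 0.544). The share did not overlap between the weeks in contralateral males either, so it cannot be separated from week there.

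Across the 62 libraries, after each table was centred, the log2 CPM of Kcnc1 and Kcnh2 had a Pearson correlation of 0.92, and that of Kcnc2 and Kcnh7 of 0.89. With group means removed, so that only the spread within groups remained, these were 0.70 and 0.46. Kcnh1 correlated negatively with Kcnh7 (-0.55) and Kcnc2 (-0.53) over the groups, and at 0.24 and 0.0185 within them. These values describe libraries that share their groups, side and table. The genes whose pattern was most like Kcnh7 were Epha6 (0.97), an ephrin receptor, Ttll7 (0.95), a tubulin polyglutamylase, and Ntrk3 (0.95), the receptor of neurotrophin 3 in large sensory neurons. In females Epha6 had a log2 fold change of sides of -1.26 at 1 week and -0.43 at 5 weeks, and Ntrk3 one of -0.93 and 0.089. Most like Kcnh2 was Jph3 (0.95), a junctophilin, most like Kcnc1 was Scrt1 (0.92), a neuronal repressor, and most like Kcnc2 was Etv1 (0.93), a transcription factor. Kcnh6 was most like Trpv1 (0.85), the capsaicin receptor of nociceptors, Kcnh1 like L1cam (0.90), an axonal adhesion molecule, and Kcnc4 like Mapt (0.80), which encodes tau. For Kcnh5 (Lclat1, 0.57) and Kcnh8 (Nmrk1, 0.51) no gene came close.

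Other voltage-gated potassium channels were taken from a list of 28 genes of the Kv1, Kv2, Kv4, KCNQ and modifier families. Of 26 tested in males at 24 h 5 were lower and 0 higher, and of 25 tested 17 were lower and 2 higher at 1 week and 16 lower and 2 higher at 5 weeks. In females, of 26 tested, 18 were lower and 2 higher at 1 week, and 12 lower and 5 higher at 5 weeks. Of all genes tested, 5.90% were lower in males at 24 h, 23.4% at 1 week and 18.7% at 5 weeks. The female shares were 21.8% at 1 week and 19.1% at 5 weeks. The median log2 fold change of the list was -0.47 in males and -0.61 in females at 1 week, and -0.59 in males and -0.25 in females at 5 weeks. Among them Kcns3, a modifier of Kv2 channels, fell in males at 1 week, with -1.33 (SE 0.10, adjusted p = 3.23e-10). Kcna2, a juxtaparanodal Kv1 subunit, had -0.96 (SE 0.074, adjusted p = 2.35e-10) there. In females at 1 week Kcns1, another modifier, had -1.18 (SE 0.073, adjusted p = 8.75e-16) and Kcna1, also a Kv1 subunit, had -0.61 (SE 0.049, adjusted p = 4.90e-13). The shares of lower genes were 6 of 9 and 17 of 25 in males at 1 week, with no test of the difference made.

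Of the 5 KCNE accessory subunits, which bind Kv channels and change their gating, 3 were tested in the comparisons of sides. Kcne3, which in other systems binds Kv3.4, rose in males, with log2 fold changes of 0.70 (SE 0.13, adjusted p = 2.36e-04) at 24 h and 1.11 (SE 0.16, adjusted p = 4.09e-06) at 1 week. It also rose in females, with 1.15 (SE 0.12, adjusted p = 7.16e-10) at 1 week and 0.43 (SE 0.14, adjusted p = 0.0112) at 5 weeks, and had 0.51 in males at 5 weeks (adjusted p = 0.0531). Kcne4 fell in males, with -0.35 (SE 0.12, adjusted p = 0.0487) at 24 h and -0.48 (SE 0.15, adjusted p = 0.0149) at 5 weeks, and in females at 1 week, with -0.44 (SE 0.11, adjusted p = 0.00112). Kcne2, the partner of ERG channels in other systems, was not called, with 0.014, 0.20 and 0.080 in males at 24 h, 1 week and 5 weeks, and 0.46 (adjusted p = 0.0927) at 1 week and -0.18 at 5 weeks in females. Of 9 genes of protein kinase C and calcineurin, enzymes that set the inactivation of Kv3.4 by phosphorylation, 5 were lower at both weeks in both sexes and 0 were called at 24 h. The same 5 genes (Ppp3ca, Ppp3cb, Ppp3r1, Prkca and Prkce, listed after their values were seen) were lower each time. Besides them 2 were higher at 1 week and 1 at 5 weeks in each sex. Of all genes tested, 23.4% and 18.7% were lower in males at 1 and 5 weeks, and 21.8% and 19.1% in females. Prkce, a protein kinase C, fell at 1 week, with -0.54 in males and -0.75 in females, and so did Ppp3cb, a catalytic subunit of calcineurin, with -0.43 in males and -0.37 in females (largest adjusted p of the 4 = 9.87e-07).

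Of 9 genes of ERG folding and turnover, 0 were lower and 1 higher in males at 24 h, 2 lower and 1 higher at 1 week and 3 lower and 0 higher at 5 weeks. In females 1 was lower and 2 higher at 1 week, and 3 lower and 1 higher at 5 weeks. Of all genes tested, 14.1% were called in males at 24 h, 47.0% at 1 week and 34.7% at 5 weeks. The female shares were 45.7% at 1 week and 42.0% at 5 weeks. Hspa8, a chaperone, fell in males at 1 week, with -0.14 (SE 0.031, adjusted p = 4.60e-04). Alg10, a glucosyltransferase that affects ERG1 in other systems, had -0.41 (SE 0.088, adjusted p = 1.89e-04) in females at 1 week and 0.87 (SE 0.10, adjusted p = 3.45e-09) at 5 weeks, opposite in sign as those of Ro60 were.

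Markers of the cell types in the ganglion moved with the side as well. Of 10 markers of large myelinated sensory neurons, 9 were lower and 1 higher at 1 week in each sex, 8 lower in males and 7 in females at 5 weeks, and 1 lower and 1 higher at 24 h. Their summed level was 6065 to 8299 CPM in ipsilateral and 9380.3 to 10114 CPM in contralateral ganglia of males at 1 week. In females at 1 week it was 5989 to 8176 CPM in ipsilateral and 9708 to 10383 CPM in contralateral ganglia. The sides were apart in both sexes, and at 5 weeks as well: 6133 to 7807 CPM and 8730.1 to 11026 CPM in ipsilateral and contralateral ganglia of males, 6977 to 7873 CPM and 9974 to 11134 CPM in those of females. At 24 h they overlapped. Ntrk3, named above as like Kcnh7, is one of these 10 markers. Of 12 nociceptor markers, which include Trpv1, 7 were lower and 2 higher in males at 1 week, 7 lower and 0 higher in males at 5 weeks, 6 lower and 0 higher in females at each week, and 0 were called at 24 h. Of 10 general neuron markers, 5 were lower and 4 higher in males and 5 lower and 5 higher in females at 1 week, and their summed level overlapped between sides, 18464 to 19894 CPM in ipsilateral and 18368 to 20525 CPM in contralateral ganglia of females. Of all genes tested, 23.4% were lower and 23.6% higher in males at 1 week, and 21.8% and 23.9% in females. At 5 weeks these shares were 18.7% and 16.0% in males, and 19.1% and 22.9% in females. At 24 h they were 5.90% and 8.23%.

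Of 10 macrophage markers 8 were higher at 1 week in each sex and at 5 weeks in females, and 4 were higher and 1 lower in males at 5 weeks. Their summed level was 294 to 818 CPM in ipsilateral and 121 to 289 CPM in contralateral ganglia of males at 1 week, and 296 to 529 CPM and 111 to 194 CPM in those of females. Of 8 Schwann cell markers 6 were lower at 1 week in each sex. At 5 weeks 1 was higher and 0 lower in males, and 1 higher and 1 lower in females. Schwann cell markers also differed between the weeks on the contralateral side. There 8 of 8 were lower at 5 weeks in females and 5 of 8 in males, where 10.7% and 13.5% of all genes were called. On the ipsilateral side 5 were lower in females and 1 in males, where 17.3% and 14.4% were called. Of 8 satellite glia markers 2 were higher and 3 lower in males and 1 higher and 1 lower in females at 1 week. Of 8 erythrocyte markers 8 were higher in males at 1 week and 0 were called in the other comparisons of sides. Of 8 markers of endothelium and pericytes 5 were higher in females at 5 weeks, and at most 1 was called in each other comparison of sides. Of 9 skeletal muscle markers 4 (Mb, Myh2, Mylpf and Tnnc2) had a median under 10 counts, and up to 3 of 6 tested were lower on the ipsilateral side. Of 4 sympathetic markers 2 were tested, and at most 1 was lower in each comparison of sides. The shares over all genes given beside the neuron markers apply to these comparisons of sides as well. The part of cell make-up in the channel differences was not tested.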

How the data were processed

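RNA-seq of rat L4 dorsal root ganglia was deposited as 2 tables of estimated counts per gene for 40982 genes, one with 24 and one with 38 libraries. Per the submitters' processing notes reads were handled with STAR 2.7.2b, featureCounts 1.6.4, cutadapt 2.5 and bcl2fastq 2.20.0.422 and the genome build was mRatBN7.2. Per the labels' protocols, libraries were made from poly-A RNA with a stranded kit and sequenced on 2 sequencer models, and which library ran on which is not stated. Of the nonzero deposited counts 74.1% and 78.1% were whole in the 2 tables. The plan had assumed whole counts, so the estimated counts were rounded, which changed no library total by more than 0.0014%. How the fractions arose is not given in the sources used here.

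Library totals were 16.9 to 33.5 M. Genes were kept by filterByExpr (minimum count 10), scaled by TMM and tested in R 4.3.3 with edgeR 4.0.16 (robust quasi-likelihood F test, two-sided, group means per table) and called at a Benjamini-Hochberg adjusted p under 0.05 over all genes. Comparisons across tables used one joint fit of all 62 libraries, whose scaling also gives the CPM. SEs come from the same fit. The 95% intervals use a normal quantile of that SE, so they are somewhat narrower than the F test implies. Alternatives were RLE scaling, DESeq2 1.42.0, limma 3.58.1 (voom), other filters, unrounded counts, a replicate block, fits of only 2 groups, the ribosomal RNA share as covariate, other contralateral libraries and leaving out libraries. The code was tested on simulated data.

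Both sides of an animal share a code in the labels of females and of males at 24 h. The main tests did not use this pairing, and the replicate block did. In males at 1 and 5 weeks same-numbered libraries deviated together from their group means in every pair. The correlations were 0.22 to 0.46 and 0.19 to 0.33. In females they were 0.096 to 0.28 at 1 week and 0.21 to 0.38 at 5 weeks. In males at 24 h they were -0.018 to 0.33, above 0.1 in 4 of 6 pairs, so not every pair deviated together there.

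The genes and lists were chosen with earlier results of these data known. Named were the 9 genes, Atf3, the 2 genes with the smallest p of each list and comparison, and the 3 genes most correlated with each member (log2 CPM, prior count 2). Kcne2 and Ro60 are outside this rule, as are the relatives Kcnh3 and Kcnh4. Some results are not reported here.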

Additional observations from a re-analysis of the deposited data

Results flagged for a closer look

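Of 90 groups of libraries examined (9 genes in 10 groups), 5 held a library far from the others, and chance gives about 1 in 20. Kcnc1 had 46.9 CPM in contralateral library 4 of females at 1 week (group median 35.6 CPM) and 31.9 CPM in ipsilateral library 3 of males at 1 week (median 18.8 CPM). Without the ipsilateral library 3, the Kcnc1 difference of sides in males at 1 week was -0.92, adjusted p = 2.96e-08. Kcnh1 had 34.5 CPM (median 42.0 CPM) and Kcnh2 had 119 CPM (median 151 CPM) in ipsilateral library 6 of males at 24 h. That library was also the lowest of 6 in Kcnh5, Kcnh6 and Kcnh8. Kcnh2 had 248 CPM in contralateral library 3 of males at 1 week (median 215 CPM).

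Side differences that themselves differed between groups of rats by edgeR's test were the following. Between 5 weeks and 1 week in females, Kcnh7 differed by 1.70 and Kcnc2 by 0.33 on the log2 scale. Between 1 week and 24 h in males, Kcnh7 differed by -1.0, Kcnc2 by -0.63, Kcnh6 by -0.51 (SE 0.14), Kcnc1 by -0.51 (SE 0.17) and Kcnh2 by -0.39. Between females and males, Kcnh7 differed by -0.69 at 1 week and by 0.93 at 5 weeks.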

How the results depend on the processing

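Leaving aside fits without a library, 588 of 625 values of single genes kept their direction and side of the threshold, 12 lost the call, 12 gained it and 13 changed sign. Without single libraries or replicate numbers 682 of 747 did so, 42 lost it, 8 gained it and 15 changed sign. The number of the 9 genes called in males at 24 h was 1, and 0 with no filter on low counts, 2 with a stricter filter and 2 with the replicate block, which adds Kcnc1 and changed no other call of the 9. The ribosomal RNA covariate gave 1 in place of 2 for the female difference between weeks, 0 in place of 1 for contralateral males, 1 in place of 2 for ipsilateral females and 1 in place of 2 for ipsilateral males. No filter gave 0 for contralateral males. Without one library or number, counts ranged from 0 to 2 (males, 24 h), 1 to 2 (female difference between weeks), 3 to 6 (male 1 week over 24 h), 1 to 2 (contralateral females), 0 to 1 (contralateral males), 2 to 5 (ipsilateral females) and 2 to 4 (ipsilateral males).

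Values that changed sign were small or used other contralateral libraries. Against those of the other week Kcnh1 was -0.021 in males at 1 week, Kcnc4 0.18 in males at 5 weeks, Kcnh8 0.15 at 1 week and -0.24 at 5 weeks in females, and Kcnh5 -0.098 in females at 5 weeks. With them Kcnh6 in females at 5 weeks (-0.20, adjusted p = 0.153) and Kcnh8 in males at 1 week (-0.22, adjusted p = 0.106) lost the call, as did Kcnh1 at 1 week in both sexes, and Kcnc4 in males at 1 week (-0.24, adjusted p = 0.0127) and Kcnh5 in males at 1 week (0.20) and 5 weeks (-0.18) and females at 1 week (0.21) gained it. Against the mean of both weeks, chosen after seeing the data, Kcnh8 was 0.013 at 1 week and -0.097 at 5 weeks in females. Kcnc4 in males at 5 weeks was 0.0089 with a stricter filter, 0.0041 unrounded and 0.0041 with ribosomal RNA genes left out, a setting also chosen after seeing the data. Kcnh5 in females at 1 week was -0.0018, -0.0028 and -0.058 with the stricter filter, those genes left out and the covariate. Without one library Kcnc4 ranged from -0.11 to 0.032 (males, 24 h), -0.085 to 0.00059 (1 week) and -0.048 to 0.046 (5 weeks), Kcnh5 from -0.024 to 0.061 (females, 1 week) and Kcnh8 from -0.066 to 0.11 (females, 5 weeks). The cause was not tested.

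Over all genes the covariate gave 4060 calls in place of 8276 for females at 1 week, 716 in place of 2454 for the female difference between weeks, 556 in place of 2569 and 1394 in place of 2739 for contralateral and ipsilateral males, and 624 in place of 3132 for ipsilateral females. The share did not overlap between the groups compared in females at 1 week, in contralateral males and in ipsilateral females. There a lost call cannot be assigned to the share or to the groups. Only the 2 groups compared gave 1604 in place of 2560 in males at 24 h. For the male difference between weeks DESeq2 gave 140 and the block 497 in place of 40, and for the sexes the block gave 517 in place of 214 at 1 week and 697 in place of 405 at 5 weeks. Kcnh3, with at most 6 counts in a library, was too low to test.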
